A study of Homo sapiens with 6 samples.

Results

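The genes described here are 38 core autophagy genes and cargo receptors, chosen by symbol and found through their Ensembl IDs among the 62710 rows of the expression table. All 38 had a row of their own. They were measured by RNA-seq in HT1080, an established human fibrosarcoma cell line. The 3 untreated libraries were compared with 3 libraries of cells given IFNβ at 20 ng/mL over 24 h, and all cells grew in high-glucose medium with serum. The labels and the cell culture methods of the study name human IFNβ for these cells, whereas its RNA sequencing methods name the mouse protein. The study's methods describe its in vitro experiments in general as biologically replicated, but the labels do not say whether the libraries of a group came from separate cultures, so the p-values measure the spread between these libraries, which may be technical.

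Autophagy encloses part of the cytoplasm in a double membrane, the autophagosome, and delivers it to the lysosome. A kinase complex around ULK1 starts the process, a lipid kinase complex around PIK3C3 marks the membrane, and lipid transfer by ATG2 proteins and scrambling by ATG9A let it grow. Small ubiquitin-like proteins of the ATG8 family (LC3 and GABARAP) are then cut by ATG4 proteases and coupled to the membrane by ATG7, ATG3 and the ATG12-ATG5-ATG16L1 complex. Cargo receptors bind ubiquitin-tagged material on one side and ATG8 proteins on the other. Several of them, SQSTM1 (p62), OPTN (optineurin) and CALCOCO2 (NDP52) among them, also take bacteria and damaged mitochondria to the autophagosome, and parts of this machinery meet the innate immune pathways that interferon switches on.

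The values are FPKM, fragment numbers divided by the length of the gene and the size of the library. They divide into whole fragments, which puts the libraries at 22848104 to 32915500 fragments, so a gene of 1 kb with 1 fragment has between 0.0304 and 0.0438 FPKM. The treatment was visible in the interferon response gene IFIT1, which had 0.873 to 0.942 FPKM in untreated cells and 409 to 415 FPKM after IFNβ. The mesenchymal markers VIM (320 to 426 FPKM over the 6 libraries), SPARC and FN1 were abundant, while THY1 and COL1A2 stayed under 0.1 FPKM. No library had more than 0.654 FPKM summed over 5 epithelial markers, 0.351 FPKM over 5 blood cell markers or 0.530 FPKM over 4 endothelial markers.

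Of the 38 genes, 37 reached a mean of 0.1 FPKM and were tested with limma on log2(FPKM + 0.1), with Benjamini-Hochberg adjustment over all 20716 genes tested. MAP1LC3A was the gene left out. With an adjusted p-value under 0.05, 14 genes were higher after IFNβ (37.8% of 37, against 15.2% of all genes tested) and 6 were lower (16.2%, against 17.5%). Only OPTN also passed an absolute log2 fold change (log2 change) of 1, which defined differentially expressed genes (DEGs) and was passed by 4.22% of all genes tested (3.49% with a rise). Autophagy genes are mostly well expressed, and well expressed genes pass the test more often. Among genes whose mean reached 1 FPKM, 21.1% were higher, 28.3% lower, 49.4% called in either direction and 3.47% DEGs (3.01% with a rise), and 20 of the 36 autophagy genes at that level were called. The median log2 fold change of the 37 genes was 0.070, beside 0.00020 for all genes tested, and their median absolute log2 fold change of 0.16 lay beside 0.18 for genes whose mean reached 1 FPKM.

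Most of these changes were therefore small. Of the 20 genes called, 14 had an absolute log2 fold change under 0.3, and the 5 at or above 0.5 were OPTN, GABARAPL1, CALCOCO2, STX17 and TFEB, all of them higher. Both groups of libraries were fully separated for 23 of the 37 genes, beside 46.6% of all genes tested and 62.7% of those whose mean reached 1 FPKM. In bulk RNA, a change in every cell cannot be told apart from a larger change in some cells, nor fewer cells from less RNA per cell.

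**Figure D1:**
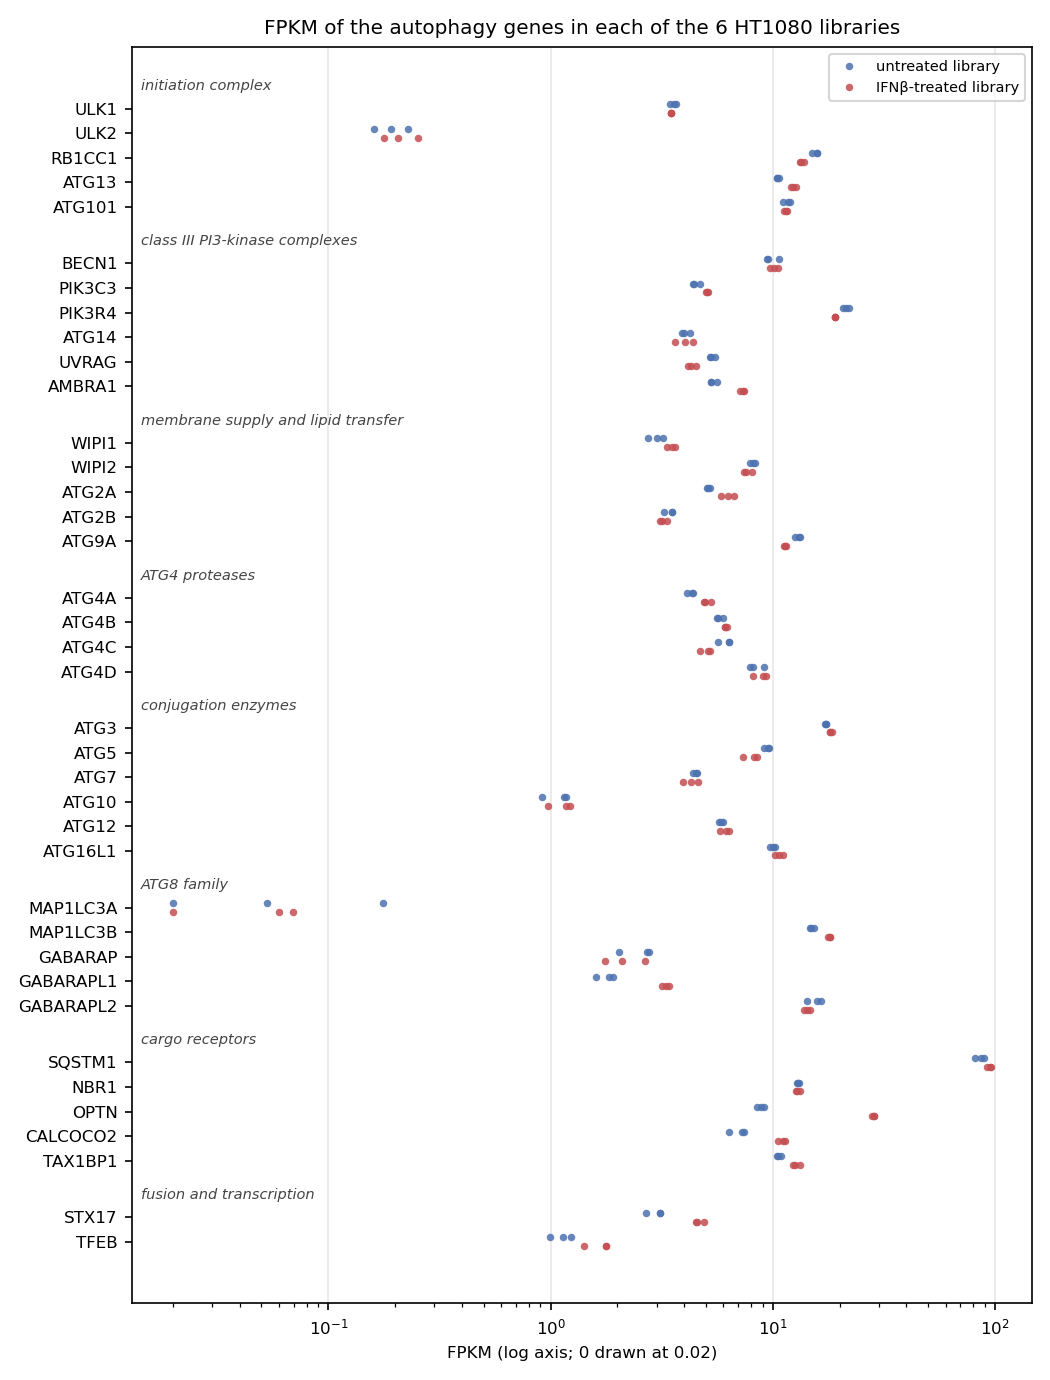
FPKM (log axis, with 0 drawn at 0.02) of the 38 autophagy genes in each library, grouped by role, with untreated libraries in blue and IFNβ-treated libraries in red. SQSTM1 is the most abundant at 81.5 to 96.2 FPKM, MAP1LC3A and ULK2 are the lowest, and OPTN shows the widest separation between the groups.

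The sequence just before the start of these genes was examined for the motif through which IFNβ acts directly, the interferon-stimulated response element (ISRE). Its core was searched on both strands as GAAA, any 2 bases and GAAA again. RefSeq (GRCh38.p14) gave windows of 250 bases before to 50 after the start for 33 of the 38 genes. MAP1LC3A, RB1CC1, STX17, UVRAG and ATG4D had no window and were not searched. None of the 33 held the ISRE core in any of their 43 windows. It stood in 4.09% of the genes tested that had a window, and in 3.57% of all 35116 windows. At a share of 4.09%, few of 33 genes would hold it, so their lack of it does not set the autophagy genes apart. The core also stood in 88 of the 348 genes (25.3%) that were DEGs with a rise and had a window. Of the autophagy genes, only OPTN was such a DEG. No match says only that these letters are absent from this window.

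The first stretch below is from OPTN, the autophagy gene with the largest rise. The other 2 are examples of interferon-responsive genes with an ISRE core, ISG15 and the restriction factor TRIM5, which also acts as an autophagy receptor. Each ends at the base before the start of transcription, is read 5′ to 3′ on the strand of the gene, and has the motif in capitals. In ISG15 and TRIM5 the capitals mark the ISRE core (overlapping copies in ISG15). In OPTN they mark GGAAATTCC, a site of the kappaB type that NF-kB factors bind, which was looked for after the sequence had been seen. Whether either motif has a part in any of these rises was not tested.
OPTN (chr10:13099972-13100081, plus strand): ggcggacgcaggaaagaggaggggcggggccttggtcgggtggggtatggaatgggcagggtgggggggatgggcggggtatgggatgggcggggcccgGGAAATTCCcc
ISG15 (chr1:1013347-1013496, plus strand): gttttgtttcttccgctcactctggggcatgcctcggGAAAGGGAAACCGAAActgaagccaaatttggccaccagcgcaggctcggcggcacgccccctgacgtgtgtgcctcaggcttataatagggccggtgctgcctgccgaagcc
TRIM5 (chr11:5685075-5685184, minus strand): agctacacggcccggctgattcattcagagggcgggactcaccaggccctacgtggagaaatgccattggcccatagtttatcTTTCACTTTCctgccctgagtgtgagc

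The kappaB-type letters, searched as GGAAATTCC on both strands, stood at base -11 before the first of the 2 OPTN starts in RefSeq and at -92 before the other. They occurred in 0.461% of all windows and 0.581% of the genes tested that had a window. Among DEGs with a rise that had a window, 7 of 348 (2.01%) held them. Of the autophagy genes, ATG5, which was lower after IFNβ, also held them. The E-box of the CLEAR type (TCACGTGA, its own reverse complement, and holding the plain E-box CACGTG), through which TFEB acts on lysosomal genes, was found in ATG3 alone, 3.03% of the 33 genes, beside 2.19% of the genes tested that had a window and 0.980% of all windows. The ATG3 stretch is shown from 60 bases before to 20 bases after the start, with both plain E-boxes in capitals, the second of which lies in the CLEAR-type site.
ATG3 (chr3:112561943-112562022, minus strand): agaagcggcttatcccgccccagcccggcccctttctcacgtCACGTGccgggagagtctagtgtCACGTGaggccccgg

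Most cargo receptors rose. Of the 5 receptors, 4 rose (80%) and none fell, and the call of SQSTM1 did not hold in all fits. Beside this, 15.2% of all genes tested and 21.1% of those whose mean reached 1 FPKM were higher. The summed level of the receptors went from between 121.9 and 127.8 FPKM in untreated libraries to between 157.3 and 161.6 FPKM after IFNβ. OPTN (ENSG00000123240, chromosome 10 from 13099449 to 13138308), the ubiquitin-binding receptor that TBK1 phosphorylates in the clearance of bacteria and mitochondria, had 8.52, 8.89 and 9.14 FPKM in untreated libraries and 27.9, 28.6 and 28.6 FPKM after IFNβ. Every treated library was above every untreated one by a wide margin. Its mean rose from 8.85 ± 0.311 to 28.4 ± 0.400 FPKM (mean ± S.D., n = 3), 3.21 times higher, with a log2 change of 1.67 (standard error, SE, 0.03, limma adjusted p = 3.1e-07). OPTN ranked 423 by log2 fold change among all genes tested and rested on at least 1000 fragments in every library.

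CALCOCO2 (chromosome 17 from 48830988 to 48866522), which encodes NDP52, a receptor for bacteria coated with galectin-8 or ubiquitin, had 6.37, 7.43 and 7.31 FPKM against 11.4, 10.6 and 11.1 FPKM. The groups did not overlap, and untreated replicate 1 was the lowest library. The log2 change was 0.65 (SE 0.06, limma adjusted p = 5.6e-04). TAX1BP1, a receptor with a ubiquitin-binding zinc finger that is related to NDP52, rose less, from 10.7 ± 0.208 to 12.7 ± 0.506 FPKM (mean ± S.D., n = 3), with a log2 change of 0.25 (limma adjusted p = 0.0024).

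SQSTM1, the receptor that gathers ubiquitin-tagged protein into condensates, was by far the most abundant of the 38 genes. It had 89.6, 81.5 and 86.6 FPKM in untreated libraries and 96.2, 94.7 and 91.8 FPKM after IFNβ. The groups did not overlap but came close, and the log2 change was 0.13 (SE 0.04, limma adjusted p = 0.039). This call did not hold when untreated replicate 2 or 3 or any of the IFNβ-treated replicates was left out, with adjusted p-values from 0.055 to 0.12. On the other strand, MRNIP (mean 2.00 FPKM) overlaps 20.7% of the SQSTM1 exon bases and MGAT4B (46.8 FPKM) overlaps 1.4%.

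NBR1, the receptor closest to SQSTM1 in domain plan, had 12.8, 13.2 and 13.0 FPKM against 12.9, 12.7 and 13.2 FPKM. These values overlapped throughout. Its log2 fold change was -0.0053, and the 95% interval of -0.068 to 0.057 leaves little room for a change in either direction. The share of the receptors' summed FPKM that OPTN held went from between 6.66% and 7.29% to between 17.3% and 18.1%, while that of SQSTM1 went from between 66.9% and 70.1% to between 58.3% and 59.6%. OPTN had 0.664 to 0.703 of the FPKM of NBR1 in untreated libraries and 2.16 to 2.25 times the FPKM of NBR1 after IFNβ, so the order of these 2 receptors turned.

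**Figure D2:**
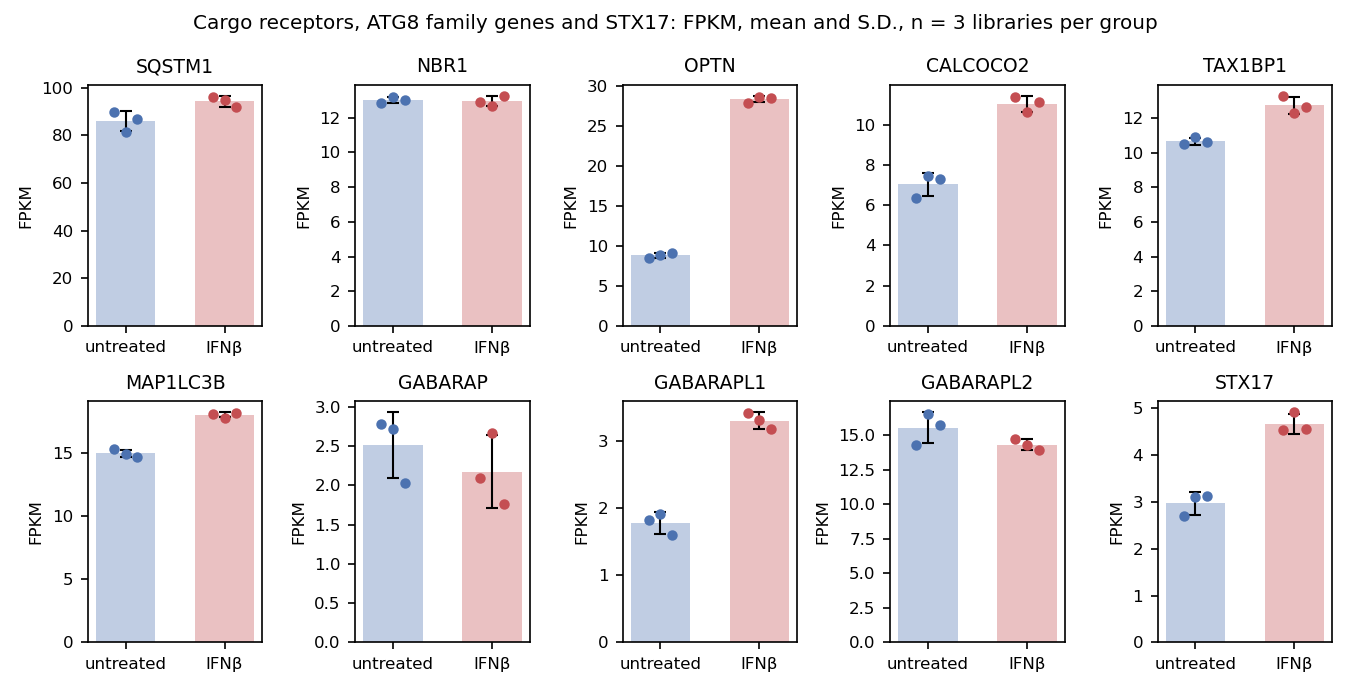
FPKM (linear axes from 0, a scale of its own for each gene) of the 5 cargo receptors, 4 ATG8 family genes and STX17, with bars for the mean, error bars for the S.D. and a point for each of the 3 libraries per group. OPTN, CALCOCO2, GABARAPL1 and STX17 separate widely, SQSTM1 narrowly, and NBR1, GABARAP and GABARAPL2 overlap between groups.

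The ATG8 family, the proteins that receptors bind on the autophagosome, split among its members. GABARAPL1 (chromosome 12 from 10212458 to 10223130) had 1.82, 1.91 and 1.60 FPKM in untreated libraries and 3.42, 3.31 and 3.18 FPKM after IFNβ. The 3 treated libraries were all above the untreated ones, and the log2 change was 0.86 (SE 0.08, limma adjusted p = 3.7e-04). It fell short of the DEG threshold and had 169 to 427 fragments per library.

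MAP1LC3B, which encodes the LC3 protein used as the standard marker of autophagosomes, had 15.3, 14.9 and 14.7 FPKM against 18.1, 17.8 and 18.1 FPKM. The groups were tight and did not overlap, with a log2 change of 0.27 (SE 0.02, limma adjusted p = 3.3e-04). Its near-identical intronless copy MAP1LC3B2, with a log2 change of 0.42, did not pass the test (limma adjusted p = 0.10), and how fragments were divided between the copies is not given in the sources used here. GABARAPL2, the other abundant member, had 14.3, 16.5 and 15.7 FPKM against 14.7, 14.3 and 13.9 FPKM. These values overlapped through untreated replicate 1, the log2 fold change was -0.12 (limma adjusted p = 0.16), and without that library it was -0.17 (limma adjusted p = 0.021).

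GABARAP had 2.51 ± 0.419 against 2.17 ± 0.460 FPKM (mean ± S.D., n = 3), with a 95% interval of the log2 fold change from -0.64 to 0.23. Its level is uncertain because of overlaps in GENCODE release 29. A second gene on the same strand, listed at a mean of 0.0 FPKM, overlaps 30.5% of its exon bases. Another on the other strand (0.809 FPKM) overlaps 25.2%. MAP1LC3A was at the limit of detection, with 0, 0.176 and 0.0527 FPKM against 0, 0.0695 and 0.0601 FPKM, or at most 3 fragments in any library. No difference could be detected at this depth. Between the abundant pair, the ratio of MAP1LC3B to GABARAPL2 FPKM was 0.905 to 1.07 in untreated libraries and 1.24 to 1.31 after IFNβ.

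Both genes listed for fusion and transcription rose, beside 21.1% of genes whose mean reached 1 FPKM. STX17 (chromosome 9 from 99906633 to 99970341), the syntaxin on the closed autophagosome that drives its fusion with the lysosome, had 2.69, 3.11 and 3.12 FPKM against 4.53, 4.90 and 4.56 FPKM. The groups stood well apart, with a log2 change of 0.64 (SE 0.07, limma adjusted p = 8.8e-04). TFEB, the transcription factor that drives lysosomal and autophagy genes, had 1.13, 1.23 and 0.994 FPKM against 1.41, 1.77 and 1.77 FPKM and a log2 change of 0.52 (SE 0.12, limma adjusted p = 0.020). Its groups did not overlap, but with 174 to 344 fragments per library the call was lost without untreated replicate 1 or 3 or IFNβ replicate 2 or 3, with adjusted p-values from 0.051 to 0.071.

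**Figure D3:**
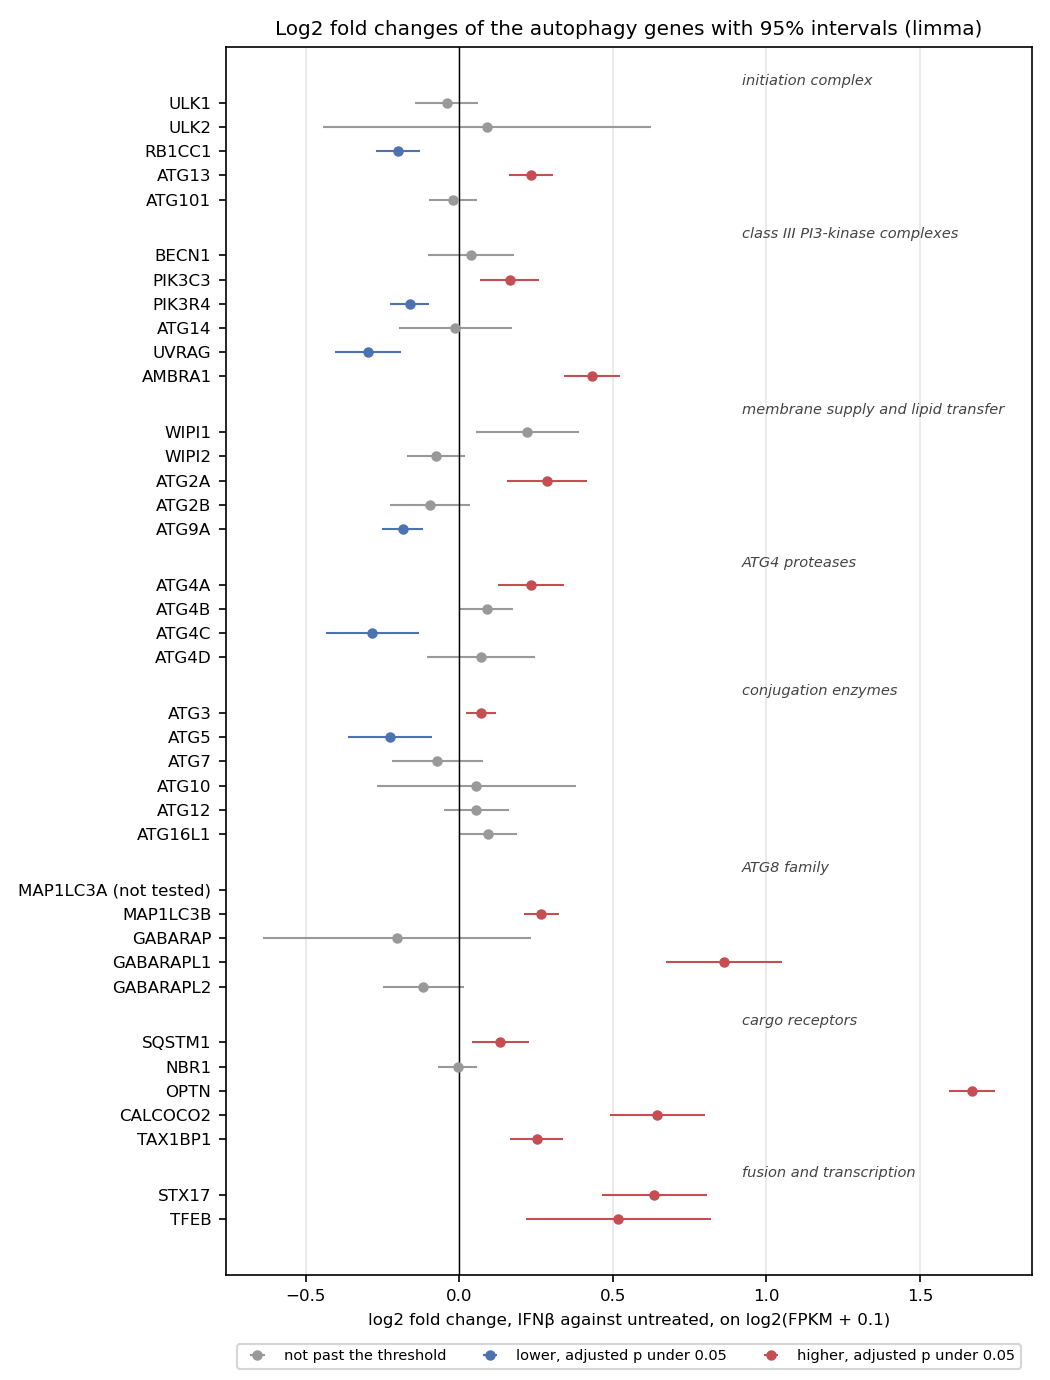
Log2 fold changes (IFNβ against untreated, on log2(FPKM + 0.1)) of the 37 genes tested with 95% intervals from limma, grouped by role and coloured by the call. Cargo receptors and the fusion and transcription genes lie near or above 0, with OPTN at 1.67, whereas each enzyme group of the core machinery has genes on both sides.

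The core machinery other than the ATG8 family moved in both directions, by at most 0.43 on the log2 scale. Beside the counts by group given below, 21.1% of genes whose mean reached 1 FPKM were higher and 28.3% lower. In the initiation complex, ATG13, the adaptor that holds the kinase to its partners, rose from 10.5 ± 0.173 to 12.4 ± 0.351 FPKM (mean ± S.D., n = 3), a log2 change of 0.23 (limma adjusted p = 0.0016). RB1CC1 (FIP200), the large scaffold of the same complex, fell from 15.6 ± 0.399 to 13.5 ± 0.311 FPKM (mean ± S.D., n = 3), a log2 change of -0.20 (limma adjusted p = 0.0029). Neither group overlapped the other for these 2 genes.

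The kinase itself did not pass the test. ULK1 had 3.46 to 3.69 FPKM in untreated libraries and 3.47 to 3.49 FPKM after IFNβ, with a 95% interval of the log2 fold change from -0.14 to 0.059. Its paralog ULK2 was much lower, with 0.160 to 0.253 FPKM over the 6 libraries and 36 to 72 fragments, too few to bound its change more narrowly than -0.44 to 0.63. ATG101, which stabilizes ATG13, had a log2 change of -0.020 (95% interval -0.098 to 0.058).

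Of the 6 genes of the PIK3C3 lipid kinase complexes, 2 rose, 2 fell and 2 did not pass the test. AMBRA1, a scaffold that brings ubiquitin ligases to ULK1 and BECN1, had 5.29, 5.27 and 5.60 FPKM against 7.41, 7.37 and 7.11 FPKM. All treated libraries were above the untreated ones, and the log2 change of 0.43 (SE 0.04, limma adjusted p = 3.2e-04) was the largest in this machinery. UVRAG, which replaces ATG14 in the PIK3C3 complex of endosomes, went the other way, with 5.24, 5.53 and 5.26 FPKM against 4.30, 4.17 and 4.52 FPKM and a log2 change of -0.30 (SE 0.04, limma adjusted p = 0.0032). It was the largest fall among the 37 genes tested.

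PIK3R4 (VPS15), the regulatory subunit in both complexes, fell from 21.4 ± 0.637 to 19.1 ± 0.0356 FPKM (mean ± S.D., n = 3), a log2 change of -0.16 (limma adjusted p = 0.0044). The catalytic subunit PIK3C3 rose from 4.51 ± 0.169 to 5.06 ± 0.0538 FPKM (mean ± S.D., n = 3), a log2 change of 0.16 (limma adjusted p = 0.021). The PIK3C3 call was lost without untreated replicate 1 or 3 or any of the IFNβ-treated replicates, with adjusted p-values from 0.052 to 0.067. BECN1, the scaffold of both complexes, and ATG14, which directs the complex to autophagy, did not pass the test, with 95% intervals of -0.10 to 0.18 and -0.20 to 0.17 for their log2 fold changes. The exons of BECN1 overlap those of PSME3, an abundant gene on the other strand (61.0 FPKM), over 4.7% of their length.

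Of the genes for membrane supply, ATG2A rose and ATG9A fell. ATG2A, a lipid transfer protein, had 5.06, 5.20 and 5.10 FPKM against 6.27, 6.70 and 5.84 FPKM, a log2 change of 0.29 (SE 0.05, limma adjusted p = 0.0079), and the treated libraries scattered more than the untreated ones. Its paralog ATG2B had 3.24 to 3.53 against 3.12 to 3.34 FPKM and did not pass the test (log2 fold change -0.095, limma adjusted p = 0.24). ATG9A, the lipid scramblase carried by the vesicles that seed the membrane, fell from 13.0 ± 0.336 to 11.4 ± 0.130 FPKM (mean ± S.D., n = 3), a log2 change of -0.18 (limma adjusted p = 0.0031). In ATG9A, 38.8% of the exon bases are shared with a second gene model on the same strand, which was itself listed at a mean of 0.024 FPKM.

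The WIPI proteins read the lipid mark that PIK3C3 leaves. WIPI2, which recruits ATG16L1, had a log2 change of -0.076 (95% interval -0.17 to 0.017). WIPI1 had 3.22, 3.03 and 2.74 FPKM against 3.36, 3.51 and 3.65 FPKM. These groups did not overlap, yet its log2 fold change of 0.22 missed the threshold (limma adjusted p = 0.054), and its adjusted p-values under the alternatives ran from 0.033 to 0.15. It was past the threshold without untreated replicate 1 (0.036), with only genes whose mean reached 1 FPKM (0.034) and with limma-voom (0.033), and not without any other single library (0.077 to 0.15).

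Among the ATG4 proteases, which trim new ATG8 proteins and free old ones from membranes, 1 rose, 1 fell and 2 did not pass the test. ATG4A had 4.34, 4.36 and 4.13 FPKM against 4.96, 4.91 and 5.27 FPKM, a log2 change of 0.23 (limma adjusted p = 0.0084). ATG4C had 5.66, 6.33 and 6.37 FPKM against 5.22, 4.70 and 5.10 FPKM, a log2 change of -0.28 (limma adjusted p = 0.015), and lost its call without untreated replicate 2 or 3, each with an adjusted p-value of 0.053. In every untreated library ATG4C was above ATG4A (a ratio of ATG4A to ATG4C of 0.649 to 0.766), and after IFNβ they were level (0.950 to 1.04). ATG4B, the most active of the 4 enzymes, and ATG4D had 95% intervals of 0.0037 to 0.18 and -0.10 to 0.25 for their log2 fold changes and limma adjusted p-values of 0.11 and 0.52. The exons of ATG4D overlap those of KRI1 on the other strand (12.3 FPKM) over 15.0% of their length.

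Of the 6 conjugation enzymes, 1 rose, 1 fell and 4 did not pass the test. ATG5, the partner of ATG12 in the conjugate that acts as the ligase, had 9.50, 9.58 and 9.13 FPKM against 8.27, 7.38 and 8.48 FPKM, a log2 change of -0.23 (limma adjusted p = 0.024). The call was lost without untreated replicate 1 or 2, with adjusted p-values of 0.068 and 0.075. ATG3, which hands ATG8 to the lipid, had 17.2 to 17.4 FPKM against 18.0 to 18.4 FPKM and a log2 change of 0.070 (limma adjusted p = 0.041), the smallest change called, and it was lost when any library was left out (adjusted p-values from 0.081 to 0.12). ATG7, the activating enzyme, ATG10, ATG12 and ATG16L1 did not pass the test, with log2 fold changes between -0.072 and 0.094. ATG10 was the lowest of them, with 0.916 to 1.23 FPKM. On the other strand, the much more abundant RPS23 (52.3 FPKM) overlaps 6.9% of the ATG10 exon bases. The exons of ATG7 overlap VGLL4 on the other strand over 18.1% of their length.

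Ratios within a library do not depend on how the library was scaled. The plotted pairs were picked with their values known, so they are a description. The ratio of GABARAPL1 to GABARAPL2 FPKM went from between 0.101 and 0.128 to between 0.229 and 0.233, and that of AMBRA1 to UVRAG from between 0.953 and 1.07 to between 1.57 and 1.77. The ratio of ATG2A to ATG2B went from between 1.44 and 1.60 to between 1.87 and 2.01. ULK1 to ULK2, also computed, overlapped (15.1 to 22.6 against 13.8 to 19.5). With 3 libraries against 3, an exact two-sided permutation test of a single ratio cannot go below p = 0.10, so none was used.

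The pathway was widened with 60 further autophagy genes, of which 56 were tested. With an adjusted p-value under 0.05, 18 were higher (32.1%, against 15.2% of all genes tested) and 13 were lower (23.2%, against 17.5%). The median log2 fold change of the 56 genes was 0.043. In either direction 55.4% were called, beside 32.7% of all genes tested; of the 53 whose mean reached 1 FPKM, 30 were called, beside 49.4% of all genes at that level. Of the 17 further selective receptors tested, 6 (35.3%) rose and 3 (17.6%) fell (PHB2, SEC62 and ATL3). Genes whose mean reached 1 FPKM were higher in 21.1% and lower in 28.3%. The largest rise was that of TRIM5, from 8.74 ± 0.216 to 30.1 ± 0.447 FPKM (mean ± S.D., n = 3), a log2 change of 1.77 (limma adjusted p = 1.1e-07). BCL2L13, a mitochondrial receptor, rose from 10.4 ± 0.317 to 18.8 ± 0.0559 FPKM (mean ± S.D., n = 3), a log2 change of 0.86. CALCOCO1, the receptor for the endoplasmic reticulum and Golgi that is related to NDP52, had 1.45 ± 0.138 against 2.25 ± 0.0798 FPKM (mean ± S.D., n = 3), a log2 change of 0.60 (limma adjusted p = 0.0024).

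Of the 19 further core and regulator genes tested, 5 (26.3%) rose and 4 (21.1%) fell (EI24, WDR45B, TMEM41B and BCL2). The abundant EI24 fell from 56.4 ± 1.02 to 40.5 ± 0.916 FPKM (mean ± S.D., n = 3), a log2 change of -0.48 (limma adjusted p = 3.4e-05). RUBCN (Rubicon), which binds the UVRAG complex and holds back autophagosome maturation, rose from 3.44 ± 0.0465 to 6.13 ± 0.185 FPKM (mean ± S.D., n = 3), a log2 change of 0.82 (limma adjusted p = 2.3e-05). TBK1, the kinase of OPTN, had 4.04 to 4.41 FPKM against 4.29 to 4.57 FPKM and did not pass the test (log2 fold change 0.053, limma adjusted p = 0.47). Among 14 further fusion genes, 4 (28.6%) rose (VPS11, VPS18, VPS39 and EPG5) and 4 (28.6%) fell (YKT6, RAB7A, VPS41 and LAMP2). These shares are near those of genes whose mean reached 1 FPKM (21.1% higher and 28.3% lower). The median log2 fold change of the fusion genes was 0.012.

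Transcription factors of autophagy genes changed in both directions. Besides TFEB, its relative TFEC rose from 0.188 ± 0.0524 to 0.485 ± 0.0313 FPKM (mean ± S.D., n = 3), a log2 change of 1.04 (limma adjusted p = 0.0098). TFEC had 33 to 128 fragments per library, and its log2 change ran from 0.32 to 1.41 over the other fits. ZKSCAN3, described as a repressor of autophagy genes, rose by 0.63 (limma adjusted p = 0.0040). MITF fell from 1.49 ± 0.165 to 0.936 ± 0.0866 FPKM (mean ± S.D., n = 3), a log2 change of -0.62 (limma adjusted p = 0.0077), and the abundant TFE3 fell from 21.3 ± 0.586 to 19.0 ± 0.621 FPKM (mean ± S.D., n = 3), a log2 change of -0.16 (limma adjusted p = 0.011). FOXO3, a factor that starvation activates, rose by 0.22 (limma adjusted p = 0.0076), and FOXO1 did not pass the test (log2 change -0.063, limma adjusted p = 0.57). Of the further autophagy genes, TFEC, FOXO3, FOXO1 and TRIM5 held the ISRE core in a window. Beside this, 4.09% of the genes tested that had a window held it. Whether the core acts on these genes was not tested.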

How the data were processed

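RNA of 6 HT1080 libraries, 3 per group, was analysed. The authors enriched mRNA, sequenced paired ends on a NovaSeq instrument and deposited FPKM per Ensembl gene and library; the submitters' processing notes name fastp, HISAT2, StringTie and GRCh38, and the annotation and strandedness are not given in the sources used here. Without strand, fragments of overlapping genes cannot be told apart: the exons of 21 of the 38 genes overlap another gene, 12 of them one whose mean reached 1 FPKM, none of those other genes being a DEG. FPKM use the length of all exons of a gene, so long annotated exons lower a level.

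Whole fragments were recovered from the FPKM for 100% of the 35303 genes above 0 (within 1e-04 of a whole number), with library totals from the exon lengths of GENCODE release 29, whose locations are given. The authors' lengths match that release exactly for 12 of the 38 genes.

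Since FPKM are not counts, limma 3.58.1 in R 4.3.3 (lmFit, then eBayes with trend) was run on log2(FPKM + 0.1), without covariates, for all genes whose mean reached 0.1 FPKM. On this scale fold changes of low genes are understated. Fragments were simulated for this comparison (20254 genes, 200 of them changed, dispersion 0.005). Of the genes changed by 0.5, 1 and 2 on the log2 scale, 28.8%, 86.6% and 97.0% were called. Of 162 calls 20 were false, none of them with at least 20 fragments. In the data, 32.7% of genes tested were called and changes as small as 0.070 (ATG3) passed. The simulated shares therefore do not carry over to the data. All 38 genes are described; further autophagy genes are named where the test was passed and the absolute log2 change reached 0.5, and the others (TBK1, TFE3, FOXO1, FOXO3, MAP1LC3B2 and the genes in brackets after a count) were named after their values were seen. The members and lists were chosen with earlier results of these data known. Other steps used Python 3.11.15 (pandas 2.3.3, numpy 2.4.6, scipy 1.17.1).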

Additional observations from a re-analysis of the deposited data

How the results depend on the processing

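The counts of 14 higher genes, 6 lower genes and 1 DEG were recomputed under 16 other fits and a stricter threshold. They were 14, 6 and 1 with a pseudocount of 1 or 0.01, with rescaling to equal totals or by median ratio, and with limma-voom on recovered fragments. The higher genes numbered 12 without a filter, 15 where the mean had to reach 1 FPKM, 13 with quantile normalization, 12 with eBayes without trend and 10 with an adjusted p-value under 0.01, beside 6, 6, 6, 5 and 4 lower genes. Leaving out each library in turn gave 10 to 12 higher and 4 to 6 lower genes, and OPTN stayed the only DEG in all these fits. Of the 20 genes called, 14 were past the threshold in the same direction in all 16 fits, whereas PIK3C3, ATG4C, ATG3, ATG5, SQSTM1 and TFEB were not. No call was reversed. Under the scalings tried, the median over all genes went no further than -0.060 on the log2 scale.

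The replicate number as a block gave 12 higher genes, 5 lower genes and 1 DEG, with ATG3, ATG5 and PIK3C3 no longer called. The deviations of same-numbered libraries from their group means had correlations of 0.053, -0.018 and 0.12, the last being the highest of all pairs. Untreated replicate 1 went best with IFNβ replicate 2 (0.099). Correlations this weak cannot decide whether libraries of the same number were paired.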
